A study of Mus musculus with 27 samples.

Results

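The regions described here are stretches of DNA that were called open by ATAC-seq after 8 h of TGF-β, were still called open at 24 h, and had no peak in untreated cells. They were found by merging the peaks of the 3 ATAC-seq lists (0, 8 and 24 h) wherever peaks touched or overlapped, and by keeping merged regions with both an 8 h and a 24 h peak and no 0 h peak. This gave 3586 regions of 34453 merged regions (10.4%). The rule used the peak calls themselves, so the pattern of calls and the scores over time are given as a description and were not tested.

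The cells were NMuMG, an epithelial line from normal mouse mammary gland that undergoes an epithelial to mesenchymal transition (EMT) when TGF-β is added. ATAC-seq and lamin B1 ChIP-seq each gave 1 library of parental NMuMG cells per time (untreated, 8 h and 24 h of TGF-β at 1 to 5 ng/ml per the labels). RNA-seq gave 2 libraries per time for parental cells (6 in all) and 2 per time for cells carrying a control shRNA (shCT) or an shRNA against lamin B1 (shLB, here KD), which makes 12 more. Each ChIP library was a mix of parallel ChIPs, and the shRNA cells were NMuMG cells infected with either shRNA, in which lamin B1 was reduced and not removed. The study's methods call the RNA libraries biological replicates, and the labels do not say that they came from separate cultures, so p-values measure only the spread between these libraries. In bulk RNA, fewer cells of a type and less RNA per cell cannot be told apart.

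ATAC-seq cuts DNA where nucleosomes are absent or loose, so its peaks mark active promoters and distal elements such as enhancers. TGF-β signals through receptor kinases to SMAD proteins, which bind DNA weakly and act beside partner factors that recognise their own motifs. AP-1, made of JUN and FOS family proteins, is such a partner, and is known for binding distal elements that become accessible when cells respond to growth factors. Lamin B1 is a filament protein of the nuclear lamina that mostly contacts closed chromatin at the nuclear edge, and is also found on open chromatin.

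The 7 windows below are examples of the DNA of these regions, at genes that the later sections return to. Each is the 300 bp around the centre of a region, on the plus strand of mm9 (NCBIM37). They were picked by hand from intergenic or intronic windows with a motif. Their genes belonged to the highest scoring regions, the largest changes or the gene lists. Promoter and exon regions were left out, so the windows do not stand for all the regions. Capitals mark exact matches, on either strand, to the AP-1 motif TGANTCA, the SMAD motif CAGACA, the TEAD motif CATTCCA or the RUNX motif TGTGGTT. The Map2k6 window (chr11:110372818-110373117) lay in an intron of Map2k6, a kinase of the p38 pathway, and held the AP-1 motif at 2 places. The window near Adra1b (chr11:43733213-43733512), which encodes an adrenergic receptor, was intergenic and also held 2 AP-1 matches. The window near Has2 (chr15:56553199-56553498), the gene of a hyaluronan synthase, held 1 SMAD match. The window near Klf6 (chr13:5836674-5836973), the gene of a zinc finger transcription factor, held 2 AP-1 matches, with a SMAD match separated from the second by 1 base, and a TEAD match. The window near Fosb (chr7:19902036-19902335), which encodes an AP-1 subunit, held 2 AP-1, 1 SMAD and 1 RUNX match. The window near Elk3 (chr10:92806014-92806313), the gene of an ETS family factor, held an AP-1 and a TEAD match. The window near Itga5 (chr15:103224102-103224401), the gene of the integrin α5 chain that binds fibronectin, held a SMAD and a RUNX match and no AP-1 match. Except for Map2k6, the windows were intergenic, between 5719 and 31351 bp from the nearest transcription start site (TSS).
Map2k6: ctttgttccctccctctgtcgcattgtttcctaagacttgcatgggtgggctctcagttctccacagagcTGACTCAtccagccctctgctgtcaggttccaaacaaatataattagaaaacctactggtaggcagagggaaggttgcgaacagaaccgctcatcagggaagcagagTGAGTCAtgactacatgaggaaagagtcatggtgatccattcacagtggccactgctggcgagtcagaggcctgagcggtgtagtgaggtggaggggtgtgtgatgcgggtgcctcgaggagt
Adra1b: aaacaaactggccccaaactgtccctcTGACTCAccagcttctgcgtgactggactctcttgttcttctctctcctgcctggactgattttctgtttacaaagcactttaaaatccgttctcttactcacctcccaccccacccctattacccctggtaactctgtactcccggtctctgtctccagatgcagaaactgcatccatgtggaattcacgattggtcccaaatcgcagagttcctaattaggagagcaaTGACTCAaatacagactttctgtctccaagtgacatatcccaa
Has2: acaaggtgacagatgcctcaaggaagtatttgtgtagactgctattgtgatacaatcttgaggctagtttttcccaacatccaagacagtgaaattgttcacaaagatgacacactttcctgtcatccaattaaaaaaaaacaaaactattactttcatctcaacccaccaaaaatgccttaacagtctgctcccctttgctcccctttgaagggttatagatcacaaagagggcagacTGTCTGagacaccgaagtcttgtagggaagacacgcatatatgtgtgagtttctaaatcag
Klf6: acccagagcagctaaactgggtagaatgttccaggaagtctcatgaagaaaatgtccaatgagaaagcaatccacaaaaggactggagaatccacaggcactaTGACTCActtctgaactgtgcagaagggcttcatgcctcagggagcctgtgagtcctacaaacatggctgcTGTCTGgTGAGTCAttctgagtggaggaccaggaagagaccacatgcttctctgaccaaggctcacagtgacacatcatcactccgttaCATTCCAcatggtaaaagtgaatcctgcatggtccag
Fosb: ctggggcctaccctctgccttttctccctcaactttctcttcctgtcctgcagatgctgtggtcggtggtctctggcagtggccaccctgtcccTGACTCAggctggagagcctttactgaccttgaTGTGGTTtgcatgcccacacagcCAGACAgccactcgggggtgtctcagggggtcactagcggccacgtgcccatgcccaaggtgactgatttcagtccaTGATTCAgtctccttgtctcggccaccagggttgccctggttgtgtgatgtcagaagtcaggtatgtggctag
Elk3: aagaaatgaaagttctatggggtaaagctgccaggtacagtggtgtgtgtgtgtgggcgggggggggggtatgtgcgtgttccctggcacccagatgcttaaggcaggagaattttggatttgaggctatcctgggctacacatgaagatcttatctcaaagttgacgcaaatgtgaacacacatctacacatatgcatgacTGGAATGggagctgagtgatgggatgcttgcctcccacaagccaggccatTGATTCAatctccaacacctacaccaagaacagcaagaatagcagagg
Itga5: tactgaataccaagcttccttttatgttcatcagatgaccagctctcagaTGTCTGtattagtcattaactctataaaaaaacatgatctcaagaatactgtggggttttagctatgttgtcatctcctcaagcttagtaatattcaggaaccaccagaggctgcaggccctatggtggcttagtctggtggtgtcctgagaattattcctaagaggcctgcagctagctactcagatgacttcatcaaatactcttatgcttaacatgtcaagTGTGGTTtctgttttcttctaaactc

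The 8 h scores of the regions were low in the range of the list and the 24 h scores were higher. The score is the peak caller's own number, with 50 as about the lowest value in each list, and it was not scaled between libraries by any step named in the sources used here. At 8 h the regions scored from 50.03 to 179.64, with a median of 65.1, beside a median of 82.9 for the 6413 regions open at all times. At 24 h they scored from 50.12 to 891.78, with a median of 250.4, beside 104 for the 20880 regions seen at 24 h only and 399 for regions open at all times. The 24 h score was above the 8 h score in 3519 of the 3586 regions (98.1%), and in 99.6% of the regions open at all times, so a higher 24 h score was not particular to the gained regions. The median peak width was 638 bp at 8 h and 1255 bp at 24 h. Across regions, the Spearman correlation of the 2 scores was 0.367, given as a description since both libraries share the sequence of each region.

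**Figure D1:**
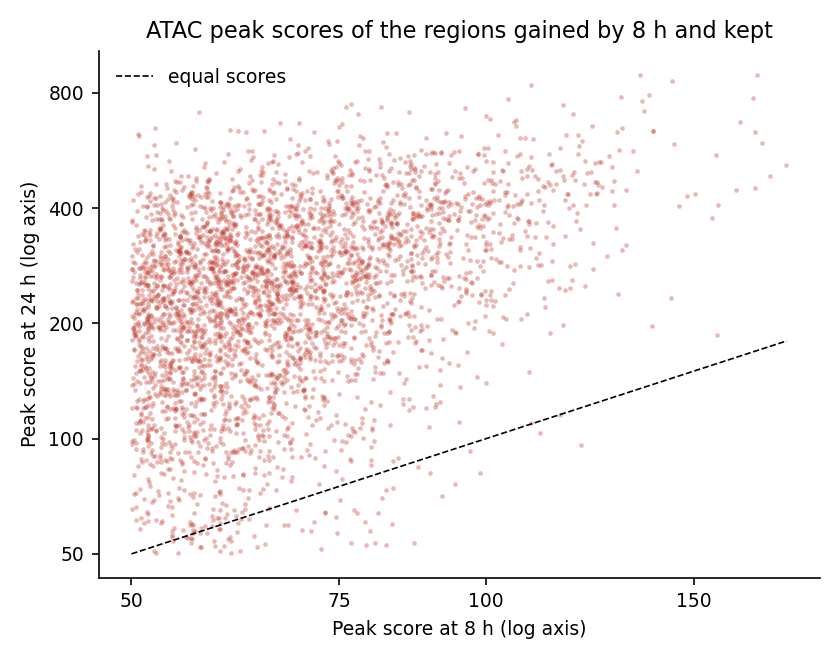
Score at 24 h (vertical axis, log scale) against score at 8 h (horizontal axis, log scale) for the 3586 regions, 1 point a region, with the line of equal scores. Nearly all points lie above the line, as 3519 regions scored higher at 24 h, and the 8 h scores crowd towards the lower end of 50.

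The lists differed in length, which bears on every class defined by them. They held 9782 peaks at 0 h, 10340 at 8 h and 33811 at 24 h, and the gained regions accounted for 34.8% of the peaks at 8 h and 10.6% of those at 24 h. Reads behind the peaks are unknown, so a region without a 0 h peak had no peak called there, which is not a measurement of closed DNA. Many regions sat near the calling limit: 653 had an 8 h score under 55 and 1281 a score under 60, while 235 scored at least 100. Just inside the limit were regions near Pacsin3, Kdm3b and Vwde, with 8 h scores of 50.03, 50.05 and 50.05. Just outside the rule were regions near Zswim6, Rock2 and Fmn1, whose 0 h scores were 50.02, 50.05 and 50.05 and which therefore counted as open at all times. Of the regions, 24 had a 0 h peak within 1 kb, the closest at 93 bp. With the 3 lists cut to the length of the shortest, 1613 regions met the rule, and with 8 h and 24 h peaks of a score of at least 100 there were 234.

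The 10 regions with the highest 8 h scores were distal. Their 8 h scores ran from 157.32 to 179.64 and their 24 h scores from 407 to 890, and 9 of the 10 were intergenic with 1 in an intron. The nearest genes were Lsm6, Rxfp2, Map2k6, Adra1b, 2810474O19Rik, Lmo4, Has2, Gdnf, Mon1b and Gm17644, at distances between 17769 and 384662 bp. The AP-1 motif was in 7 of the 10 windows and the SMAD motif in 7. No lamin B1 peak overlapped any of these 10 regions at any time. The genes beside them did not share a direction in RNA: Has2 rose, Map2k6 fell by 24 h, and Rxfp2, a relaxin family receptor, was at or near 0 FPKM in all 18 libraries.

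Most of the regions lay away from promoters, in contrast to regions open at all times. A promoter here is a region within 500 bp of a TSS of the GENCODE M1 annotation on NCBIM37. Of the 3586 regions, 792 (22.1%, 95% Wilson interval 20.8 to 23.5) were at a promoter, 181 (5.05%) in an exon, 1049 (29.3%) in an intron and 1564 (43.6%) between genes. Among regions open at all times 70.1% were at a promoter, a difference of 48.0 points below for the gained regions (95% Newcombe interval 46.2 to 49.7). Regions that were missing at 8 h only were also mostly promoters (63.4%). The median distance to a TSS was 17517 bp, beside 0 for regions open at all times and 20418 bp for regions seen at 24 h only. These intervals cover counting error only, since there was 1 ATAC-seq library per time.

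The comparison with regions seen at 24 h only depended on how the lists were cut. In the full lists the promoter share of the gained regions was above that of the 24 h only regions, at 22.1% against 15.6%. Within lists of equal length the order turned, with 25.05% against 28.7%, and it turned also among regions whose 24 h score lay between the quartiles of the gained regions (166.3 and 347.4), with 23.8% against 25.6%. No difference in place from the 24 h only regions is therefore claimed.

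Lamin B1 peaks overlapped few of the gained regions. At 0 h 211 of the 3586 regions (5.88%, Wilson interval 5.16 to 6.70) touched a lamin B1 peak, 370 did at 8 h (10.3%, 9.36 to 11.4) and 292 did at 24 h (8.14%, 7.29 to 9.08). In regions open at all times these shares were 26.1, 43.3 and 35.7%. In the gained regions the 8 h share was the highest of the 3, as it was in the other classes, and 130 regions (3.63%) had a lamin B1 peak at every time. A lamin B1 peak was present at 8 h or 24 h and not at 0 h in 254 regions (7.08%). The lamin B1 lists also differed in length, and lamin B1 ChIP-seq had 1 library per time, so no change over time was tested.

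The lamin B1 overlap was mostly at promoters. At 8 h 342 of the 792 promoter regions (43.2%, 39.8 to 46.7) touched a lamin B1 peak, against 28 of the 2794 others (1.00%, 0.694 to 1.44). Among promoters the share was still below that of promoters open at all times (58.9%, 57.5 to 60.3), and among the others below the 6.67% of non-promoter regions open at all times. The promoter region of Smad7, the inhibitory SMAD, touched lamin B1 peaks at 8 and 24 h, and the promoter region of Ctgf, a matricellular protein, touched one at 24 h. Against the 24 h only regions, the share with a lamin B1 peak at 24 h was higher in the full lists (8.14% against 4.85%) and lower among regions of like 24 h score (8.64% against 9.27%).

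**Figure D2:**
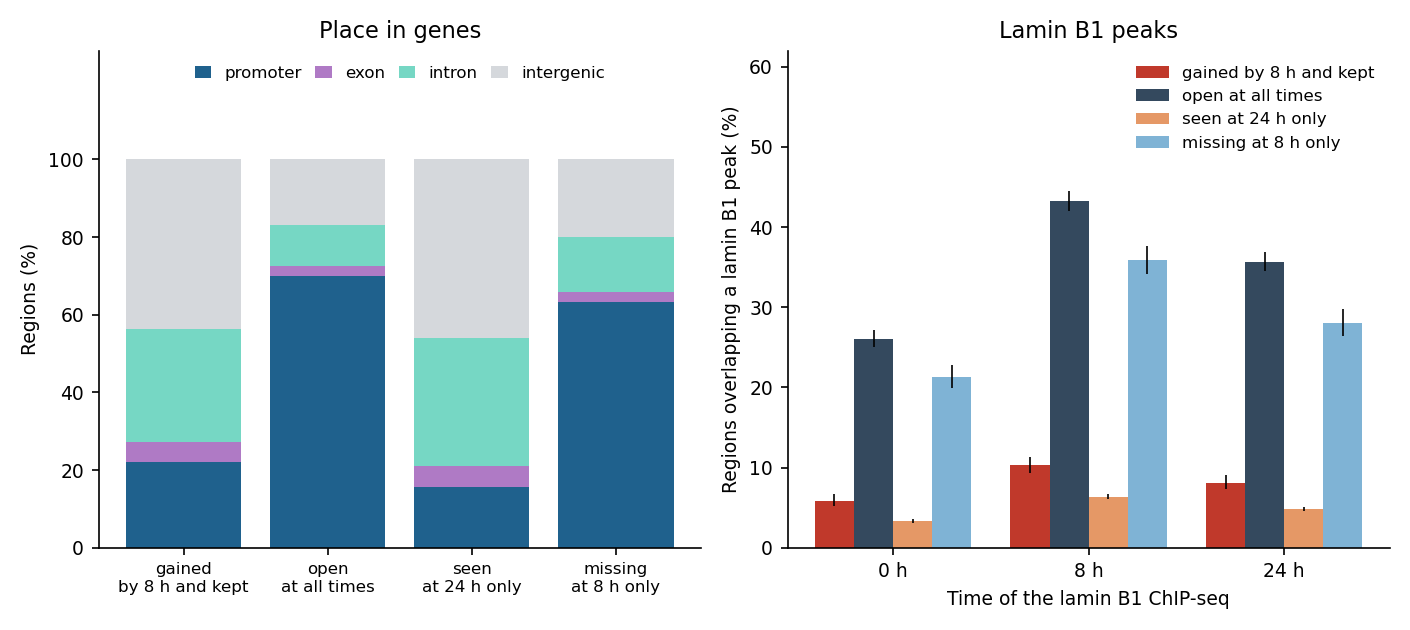
Left, percent of regions (vertical axis) at promoters, in exons, in introns and between genes for each class of merged region, as stacked bars. Right, percent of regions (vertical axis) with a lamin B1 peak at 0, 8 and 24 h for the same classes, with 95% Wilson intervals. The gained regions have 22.1% at promoters against 70.1% for regions open at all times, and lower lamin B1 shares at each time.

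The DNA of the gained regions was of middling GC content and rich in AP-1 motifs. In the 300 bp windows the mean GC content was 50.4% ± 10.1 (SD over 3586 windows), beside 61.2% in regions open at all times and 48.7% in regions seen at 24 h only. CpG-rich windows, with at least 50% GC and a CpG ratio of at least 0.6, made up 17.3%, beside 63.3 and 11.3%. The AP-1 motif TGANTCA, which is its own reverse complement, was in 1768 windows (49.3%, 47.7 to 50.9), against 18.0% of regions open at all times and 40.9% of all merged regions. At least 2 AP-1 matches were in 545 windows (15.2%), against 4.88% of regions open at all times and 12.3% of regions seen at 24 h only.

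AP-1 matches were concentrated at the region centres. Within 100 bp of the centre there were 2.52 matches per kb, and beyond 800 bp there were 0.305, a ratio of 8.28. In regions open at all times the ratio was 2.88, and in regions seen at 24 h only it was 7.91, with 2.43 matches per kb near the centre. The SP/KLF motif GGGCGG of GC-rich promoters was also centred, with a ratio of 5.88 in the gained regions and 9.26 in regions open at all times.

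Base composition and place moved with the AP-1 share and were separated by class. AP-1 was in 61.1% of gained windows under 45% GC, 58.5% of those between 45 and 55%, and 17.5% of those above 55%, against 49.9, 42.1 and 6.07% in regions open at all times. In non-promoter regions it was in 59.9% of gained windows against 960 of 1920 windows of regions open at all times, and at promoters in 11.7% against 4.38%. The gained regions held AP-1 more often than regions open at all times in each class of GC and place.

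**Figure D3:**
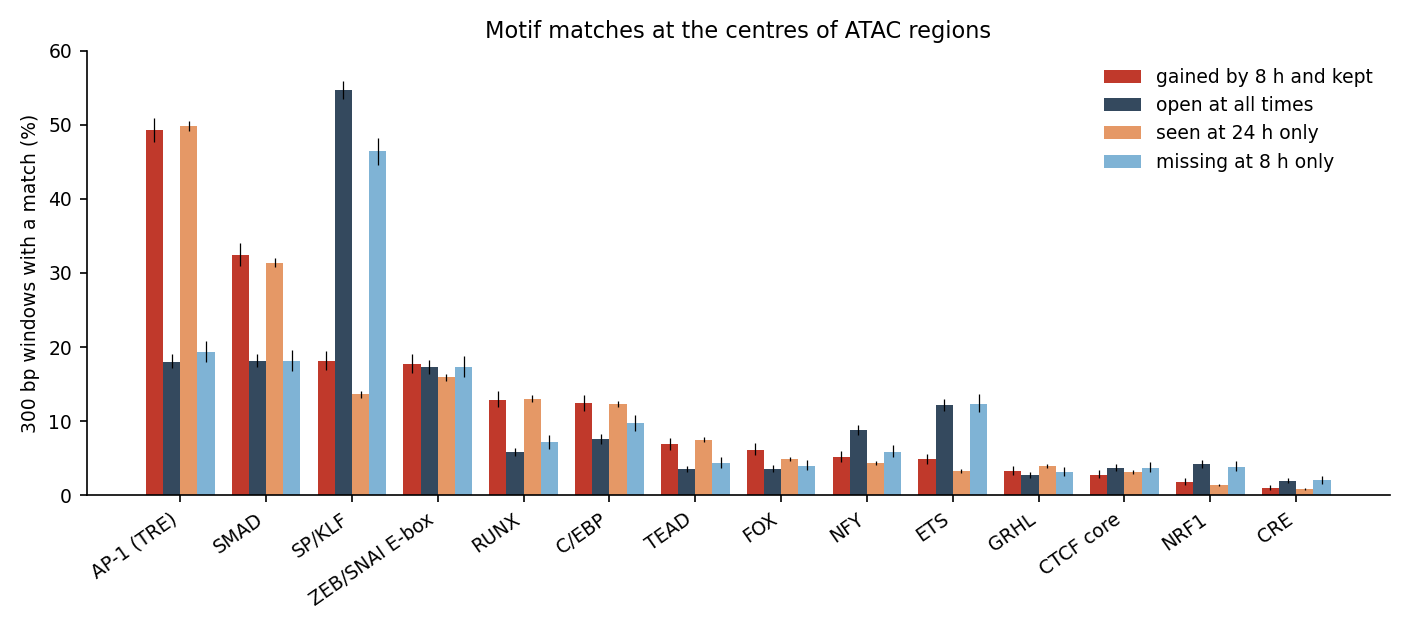
Percent of 300 bp windows (vertical axis) with an exact match to each of the 14 motifs (horizontal axis), for the gained regions and the classes they are compared with, with 95% Wilson intervals. AP-1 is the most frequent motif in the gained regions at 49.3%, and SP/KLF in regions open at all times at 54.7%.

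**Figure D4:**
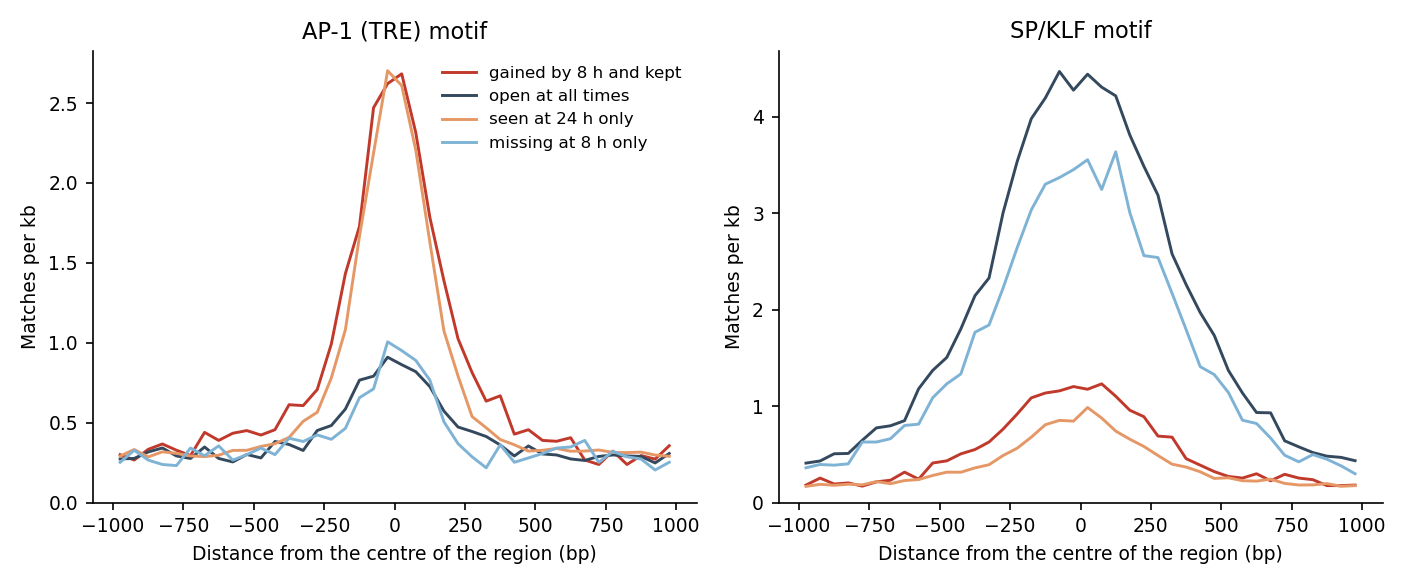
Matches per kb (vertical axis) of the AP-1 and SP/KLF motifs against distance from the region centre in bp (horizontal axis), 1 line per class. The AP-1 line of the gained regions peaks at the centre, where it reaches 2.52 matches per kb within 100 bp.

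Several other motifs were more frequent than in regions open at all times when all windows were counted together. The SMAD motif CAGACA was in 32.5% of windows against 18.2%, the RUNX motif TGTGGTT in 12.9% against 5.82%, the TEAD motif CATTCCA in 6.86% against 3.52%, the C/EBP motif TTGCNNAA in 12.5% against 7.59% and the FOX motif TGTTTAC in 6.16% against 3.57%. Motifs typical of CpG-rich promoters were less frequent, with SP/KLF in 18.2% against 54.7%, the ETS motif CCGGAAG in 4.82% against 12.1%, the NFY motif AGCCAAT in 5.13% against 8.81% and the NRF1 motif GCATGCG in 1.81% against 4.19%. For the E-box CAGGTG bound by ZEB and SNAI repressors the shares were 17.7 and 17.3%, a difference of 0.46 points whose interval ran from -1.08 to 2.03. For the GRHL motif AACNNGTT they were 3.32 and 2.76%, with an interval of -0.13 to 1.30 points. The CTCF core AGGNGGCAG (2.76% against 3.71%) and the CRE TGACGTCA (1.00% against 1.92%) were less frequent over all windows. Shares over all merged regions were 27.9% for SMAD, 11.1% for RUNX, 6.41% for TEAD, 24.4% for SP/KLF and 16.6% for the E-box. Within classes of GC content or place, many of these shares had overlapping Wilson intervals. SMAD stayed more frequent in each GC class (36.3% against 28.6% under 45% GC, 36.9% against 28.2% from 45 to 55%, 19.5% against 13.6% over 55%) and away from promoters (37.3% against 30.1%), while at promoters the intervals overlapped (15.4% against 13.1%). RUNX differed beyond the intervals only from 45 to 55% GC (15.3% against 11.01%), and C/EBP only at promoters (9.22% against 5.34%). For TEAD and FOX the intervals overlapped in each class, with TEAD in 8.30% against 7.86% and FOX in 7.34% against 7.71% away from promoters. They overlapped in each class for CTCF and CRE as well, and the CRE shares were 2.78 and 2.54% at promoters and 0.501 and 0.469% elsewhere. SP/KLF stayed less frequent at promoters (59.0% against 72.2%) and away from them (6.59% against 13.6%). ETS and NRF1 were less frequent beyond the intervals from 45 to 55% GC (2.60% against 5.10% and 0.845% against 2.26%) and not at promoters (15.03% against 16.2% and 4.42% against 5.52%). Regions seen at 24 h only held SMAD in 31.38%, RUNX in 13.04%, TEAD in 7.505% and C/EBP in 12.29% of windows. For these motifs the interval of the difference from the gained regions held both signs, so their shares were not particular to the gained regions. In the full lists FOX (4.852%), SP/KLF, ETS, NFY, NRF1 and the E-box were less frequent in regions seen at 24 h only, beyond the interval of the difference. Among regions of like 24 h score the SP/KLF order turned, with 19.0% in gained regions against 19.5%. No difference in SP/KLF from the 24 h only regions is therefore claimed, and the other motifs of this group were not compared at like score. Motifs were counted separately where their matches overlapped, and an exact match is a description of letters, not of a bound factor.

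Against the 24 h only regions, the AP-1 share was 49.3% beside 49.9% in the full lists, with an interval of -2.35 to 1.19 points for the difference. It was higher in the gained regions within lists of equal length (46.2% against 40.8%) and among regions of like 24 h score (48.0% against 42.9%). Gained regions at or above their own median 8 h score held AP-1 in 50.3% (47.9 to 52.6) and those below it in 48.4% (46.0 to 50.7), with intervals that overlap.

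RNA from the same cell line was used to ask what the nearest genes did. A gene was linked to a region when its TSS was the nearest one and within 50 kb, which is a statement of distance only. Of the 3586 regions, 2543 (70.9%) were linked to 2205 of the 24892 genes with values, 1919 with 1 region, 243 with 2 and 43 with 3 or more. The numbers of linked genes in the gene lists below were not tested against this. Genes were tested where the FPKM (fragments scaled to transcript length and to the number of reads, the unit of the deposited tables) was at least 1 in at least 2 libraries, which left 1658 linked genes for the parental libraries and 1634 for the shRNA libraries. A gene low in untreated cells could pass this filter through its treated libraries alone. Changes are differences of log2(FPKM + 1), which understates low genes, and a gene was called where its limma p, adjusted by Benjamini-Hochberg, was under 0.05.

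In parental cells the linked genes rose more often than genes at large, and fell about as often. At 8 h 548 of 1658 linked genes rose (33.1%), against 22.4% of all 11309 tested genes, and 503 fell (30.3%), against 32.1%. At 24 h 684 rose (41.3%) against 33.4% of all genes, and 573 fell (34.6%) against 37.1%. The median change of the linked genes was 0.00 at 8 h and 0.04 at 24 h, beside -0.05 and -0.02 for all tested genes. Both comparisons share the untreated libraries. In either direction 63.4% of the linked genes were called at 8 h (54.5% of all genes) and 75.8% at 24 h (70.5%). The share that fell was near the background at both times and is not a result about the linked genes.

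Larger changes showed the same order. With at least a 2-fold change, 79 of 1658 linked genes rose at 8 h against 2.02% of all genes and 38 fell against 2.28%. At 24 h 156 rose against 5.28% and 106 fell against 6.51%. In all, 7.06% of the linked genes passed this limit at 8 h (4.30% of all genes) and 15.8% at 24 h (11.8%). The share with such a fall was near that of all genes at both times and is not a result about the linked genes.

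Among the linked genes, those with distal regions, AP-1 motifs or several regions had higher shares of rises at 8 h. It was 39.9% for genes linked to non-promoter regions and 25.6% for genes linked to promoter regions, and 41.1% for genes with an AP-1 region against 30.1% for those with a region lacking it. It was 30.1% for genes with 1 region, 49.7% for genes with 2 and 64.7% (22 of 34 tested) for genes with 3 or more. At 24 h 17 of these 34 rose. For comparison, the 8 h share was 30.5% for genes linked to non-promoter regions seen at 24 h only and 32.1% for those linked to non-promoter regions open at all times. These classes share genes, and the differences between them were not tested.

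The control shRNA cells gave a separate set of libraries for the same question. At 8 h 493 of 1634 linked genes rose (30.2%) against 19.4% of 11450 tested genes, and 688 fell (42.1%) against 44.9%. At 24 h 543 rose (33.2%) against 25.5%, and 692 fell (42.4%) against 45.1%. In either direction 72.3% of linked genes were called at 8 h (64.3% of all genes) and 75.6% at 24 h (70.7%). With at least a 2-fold change 134 rose (3.83% of all genes did) and 95 fell (4.75%) at 8 h, and 169 rose (5.95%) and 149 fell (8.64%) at 24 h. In either direction that was 14.0% of the 1634 linked genes at 8 h (8.58% of all genes) and 19.5% at 24 h (14.6%). In these cells the median of all tested genes was itself below 0, at -0.14 at 8 h and -0.13 at 24 h, and the linked genes had medians of -0.10 and -0.08. After quantile normalization, which brought the median of all genes to -0.02 and -0.00, 589 linked genes rose and 506 fell at 8 h, and 672 rose and 543 fell at 24 h, so that the share of rises among called genes went from 41.7 to 53.8% at 8 h and from 44.0 to 55.3% at 24 h. In that setting 67.0% of linked genes were called at 8 h, beside 58.6% of all genes, and 74.4% at 24 h, beside 68.1%. Of the 548 linked genes that rose in parental cells at 8 h, 407 also rose in control shRNA cells, which is 74.3% of the parental list and 82.6% of the control shRNA list, beside 64.2 and 73.2% over all genes. For falls 444 were shared, 88.3% of the parental list and 64.5% of the other, near the 84.1 and 59.3% over all genes.

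Genes of the TGF-β pathway had gained regions at 7 of the 18 on the list. The 6 that were tested rose in parental cells at both times, beside 14 of 17 tested genes of the whole list at 8 h and 13 at 24 h. They were the ligand Tgfb2, the latency protein Ltbp1, the signal transducer Smad3, the inhibitory Smad7, the receptor-signalling inhibitor Pmepa1 and the corepressor Tgif1, while Bambi, a decoy receptor, was under the filter. Pmepa1 was at 39.0 and 38.6 FPKM in the untreated libraries, 125 and 117 at 8 h, and 127 and 123 at 24 h. All treated libraries of Pmepa1 were above both untreated ones, and the change was 1.61 ± 0.05 (SE) at 8 h with an adjusted p of 1.1e-05 in limma. Its region was intergenic, 4297 bp from the TSS.

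Smad7 was at 4.92 and 5.19 FPKM untreated, 11.9 and 9.64 at 8 h, and 11.3 and 10.5 at 24 h, again without overlap between untreated and treated libraries. It had 2 regions, 1 at its promoter with a lamin B1 peak at 8 and 24 h. Tgfb2 had 3 regions, 1 of them in an intron, and was at 2.71 and 2.83 FPKM untreated, 3.84 and 3.35 at 8 h, and 7.75 and 7.15 at 24 h. Its call at 8 h (0.28 ± 0.07, adjusted p of 0.016 in limma) was lost without 1 of the untreated libraries (0.26) or 1 of the 8 h libraries (0.21), and its 24 h change was 1.17 ± 0.07. In control shRNA cells Smad7, Pmepa1, Tgif1 and Ltbp1 rose at both times. Smad3 went the other way there, from 39.6 and 36.1 FPKM untreated to 26.6 and 27.4 at 24 h (-0.47 ± 0.05, adjusted p of 3.2e-05 in limma), and was not called at 8 h. Tgfb2 was at 3.20 and 2.11 FPKM in untreated control shRNA cells at 2.10 and 2.14 at 8 h and at 3.62 and 4.13 at 24 h, without a call at either time.

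Genes of the actin cytoskeleton and focal adhesions had gained regions at 5 of the 18 listed, and all 5 rose at both times in parental and in control shRNA cells. They were Tpm4 (tropomyosin), Tln1 (talin) and the integrin chains Itga2, Itga5 and Itgav. In the whole list 14 of 16 tested genes rose at 8 h in parental cells and none fell. Itga5 was at 16.6 and 16.7 FPKM in untreated parental cells, 79.05 and 61.7 at 8 h, and 108 and 101.3 at 24 h. The change of Itga5 at 8 h was 2.01 ± 0.10 in parental cells and 2.94 ± 0.05 in control shRNA cells. Its regions were 10860 and 26339 bp from the TSS.

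Matrix genes with gained regions rose mostly by 24 h in parental cells. Of the 7 linked genes of the list, 2 rose at 8 h, among them Lox, which encodes a collagen crosslinking enzyme, and the collagenase gene Mmp13 fell. By 24 h the crosslinking enzyme Loxl2 and the basement membrane collagens Col4a1 and Col4a2 had risen too, beside 15 of 19 tested genes of the whole list. Lox was at 1.93 and 1.79 FPKM untreated, 7.27 and 6.97 at 8 h and 17.0 and 15.7 at 24 h in parental cells. In control shRNA cells its level was 0.126 and 0.165 FPKM untreated, 2.94 and 3.09 after 8 h, and 8.13 and 7.10 after 24 h. Its changes at 8 h were 1.51 ± 0.06 and 1.81 ± 0.18 on the log2(FPKM + 1) scale, in separate tables whose values were normalized separately. Plaur, the urokinase receptor, was at 93.0 and 90.1 FPKM untreated and 86.8 and 82.7 at 8 h, and was not called in parental cells. In control shRNA cells Plaur rose by 24 h (0.20 ± 0.07), and Col4a1 and Col4a2 fell at 8 h (-0.16 ± 0.06 and -0.24 ± 0.07) before they rose by 24 h (0.95 ± 0.06 and 0.94 ± 0.07). The median of all tested genes in these cells was itself -0.14 at 8 h, so the fall of Col4a1 was about the size of that shift.

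Has2 combined a high 8 h ATAC score (168.43) with one of the largest RNA rises. It was at 0.497 and 0.504 FPKM untreated, 9.99 and 6.20 at 8 h, and 20.02 and 16.5 at 24 h in parental cells. The untreated libraries of Has2 were both below all treated ones, and the changes were 2.57 ± 0.19 at 8 h and 3.68 ± 0.19 at 24 h, with adjusted p of 8.0e-05 and 4.4e-06 in limma. In control shRNA cells Has2 went from 0.141 and 0.171 FPKM to 21.6 and 20.6 at 8 h and 37.3 and 38.1 at 24 h.

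By the rule for large changes, Ass1, Gpr123, Lmcd1, Prg4 and Has2 were the largest rises at 8 h in parental cells among linked genes with separate replicates and a mean of at least 5 FPKM. Ass1, the argininosuccinate synthase of arginine synthesis, went from 3.46 and 3.28 FPKM to 57.0 and 36.6 at 8 h and 121 and 117 at 24 h. Lmcd1, a LIM domain protein with 2 regions, 1 at its promoter, went from 2.07 and 2.16 to 23.1 and 16.5 FPKM at 8 h. Gpr123, an adhesion-type receptor, went from 0.993 and 1.09 to 23.1 and 15.8 FPKM, and had no row among the shRNA values. Prg4, which encodes the lubricating proteoglycan lubricin, went from 0.175 and 0.123 to 10.0 and 3.68 FPKM, with 8 h libraries that differed widely from each other. At 24 h Ass1, Lgr6 (a receptor of R-spondins), Gpr123, Col7a1 (anchoring fibril collagen) and Has2 rose by the same rule, with changes from 3.68 to 4.78.

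The largest falls by the same rule were of Id2, Id3, Egln3, Aspa and Gclc at 8 h, and of Egln3, Aspa, Iqgap2, Sepp1 and Lgals2 at 24 h. Id2, an inhibitor of helix-loop-helix factors, went from 224 and 218 FPKM to 23.9 and 37.5 at 8 h and 30.2 and 34.6 at 24 h, with a change of -2.84 ± 0.18 at 8 h. Its region covered the promoter. Id3 went from 86.9 and 73.2 FPKM to 22.6 and 24.6 at 8 h and was back at 71.4 and 75.4 at 24 h, where it was not called. Ccnd1, the gene of cyclin D1, fell at both times. Egln3, an oxygen-sensing prolyl hydroxylase, fell from 26.3 and 24.9 FPKM to 2.23 and 2.28 at 24 h. Gclc encodes a subunit of the enzyme that starts glutathione synthesis, and Sepp1 the selenium carrier selenoprotein P. Lgals2, a galectin, was at 1831 and 1687 FPKM untreated, 1410 and 1473 at 8 h and 112 and 115 at 24 h. The largest falls were picked for their size, so they say nothing about gained regions in general. The share of linked genes that fell was near that of all genes at both times.

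EMT genes of both kinds had gained regions. Of the 15 mesenchymal genes listed 4 were linked, and Zeb2, Snai2 and the collagen gene Col1a1 rose while Twist2 fell, at both times in parental cells. The same calls were made in control shRNA cells except that Snai2 was not called at 8 h. In the whole mesenchymal list 8 of 15 tested genes rose and 2 fell at 8 h in parental cells, and 11 rose and 3 fell at 24 h. Zeb2, a repressor of epithelial genes, was at 1.92 and 2.03 FPKM untreated, 2.92 and 3.05 at 8 h and 7.15 and 6.59 at 24 h. Snai2, of the SNAIL family, was at 1.97 and 1.997, 2.62 and 2.57, and 6.15 and 6.36 FPKM. Of the 16 epithelial genes listed 3 were linked, Cdh1 (E-cadherin), Dsp (desmoplakin) and Grhl2, the last under the filter. Cdh1 had 2 intergenic regions and fell from 113 and 119 FPKM to 86.3 and 92.9 at 8 h and 39.4 and 41.1 at 24 h. Dsp rose at 8 h (0.36 ± 0.07) and was not called at 24 h. In the whole epithelial list 4 of 10 tested genes rose and 4 fell at 8 h in parental cells, and 2 rose and 6 fell at 24 h.

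The genes of factors whose motifs were searched had gained regions too. Of 12 AP-1 and related genes, Jun, Fosb and Atf3 were linked, and Jun and Atf3 rose in parental cells while Fosb was below 0.3 FPKM in each parental library. In the whole list 8 of 10 tested genes rose at 8 h and 6 at 24 h in these cells, so rises were not particular to the linked ones. Jun was at 7.61 and 8.12 FPKM untreated, 18.9 and 17.5 at 8 h and 24.1 and 23.8 at 24 h, and its change at 8 h was 1.12 ± 0.05. In control shRNA cells Jun rose likewise, from 8.86 and 7.41 to 20.9 and 19.1 FPKM, and Atf3 was at 6.05 and 4.93 untreated and 5.36 and 5.52 at 8 h. Of the other factors, Runx1, Runx2, Ets1, Elk3 and Klf6 rose at both times in parental cells, Klf4 and Grhl1 fell at both, and Foxa1 fell at 8 h. Over all tested genes of these cells 22.4% rose and 32.1% fell at 8 h, and 33.4% rose and 37.1% fell at 24 h. Ets1 was called as a fall in control shRNA cells at 24 h (-0.19 ± 0.07), where the median of all tested genes was itself -0.13. The call of Grhl1 at 8 h (-0.29) was lost without 3 of the 4 libraries in turn. Of the TEAD genes, the coactivator gene Wwtr1 and the target Ctgf rose at both times, while Tead1 rose and Tead4 fell at 24 h.

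Growth factor genes with gained regions were Pdgfb, Wnt9a, Jag1 and Ereg. The first 3 rose at both times in parental and control shRNA cells, and the EGF receptor ligand Ereg fell in parental cells at both times, with the 8 h call lost without 1 of the untreated libraries (-0.23). Jag1, a Notch ligand, was at 13.3 and 14.8 FPKM untreated, 69.3 and 54.5 at 8 h and 76.7 and 73.8 at 24 h. Wnt9a was at 0.218 and 0.142 FPKM untreated, 1.14 and 0.651 at 8 h and 12.1 and 9.94 at 24 h, so most of its rise came after 8 h. These calls stand beside rises of 22.4% of all tested parental genes at 8 h and 33.4% at 24 h, and falls of 32.1 and 37.1%.

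Frmd4a, Kirrel3 and Tns3 had the most gained regions, 5 each. The regions of Tns3, a tensin of focal adhesions, included 1 at the promoter and 2 in exons, and Tns3 was at 33.4 and 35.2 FPKM untreated, 41.3 and 40.6 at 8 h and 51.5 and 49.8 at 24 h. Frmd4a, a scaffold protein of epithelial polarity, rose from 12.4 and 13.6 FPKM to 16.9 and 17.6 at 8 h, while Kirrel3, a cell adhesion protein, fell to 4.47 and 5.18 from 6.37 and 6.98. Wisp1, a matricellular protein of the same family as Ctgf, had 4 regions within 30 kb, 1 with an 8 h score of 143.65, and was at 11.8 and 12.3 FPKM untreated, 49.5 and 36.7 at 8 h and 112 and 107 at 24 h. The RNA changes of genes with many regions thus ran from small falls to a change of 3.08 ± 0.12 for Wisp1 at 24 h.

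**Figure D5:**
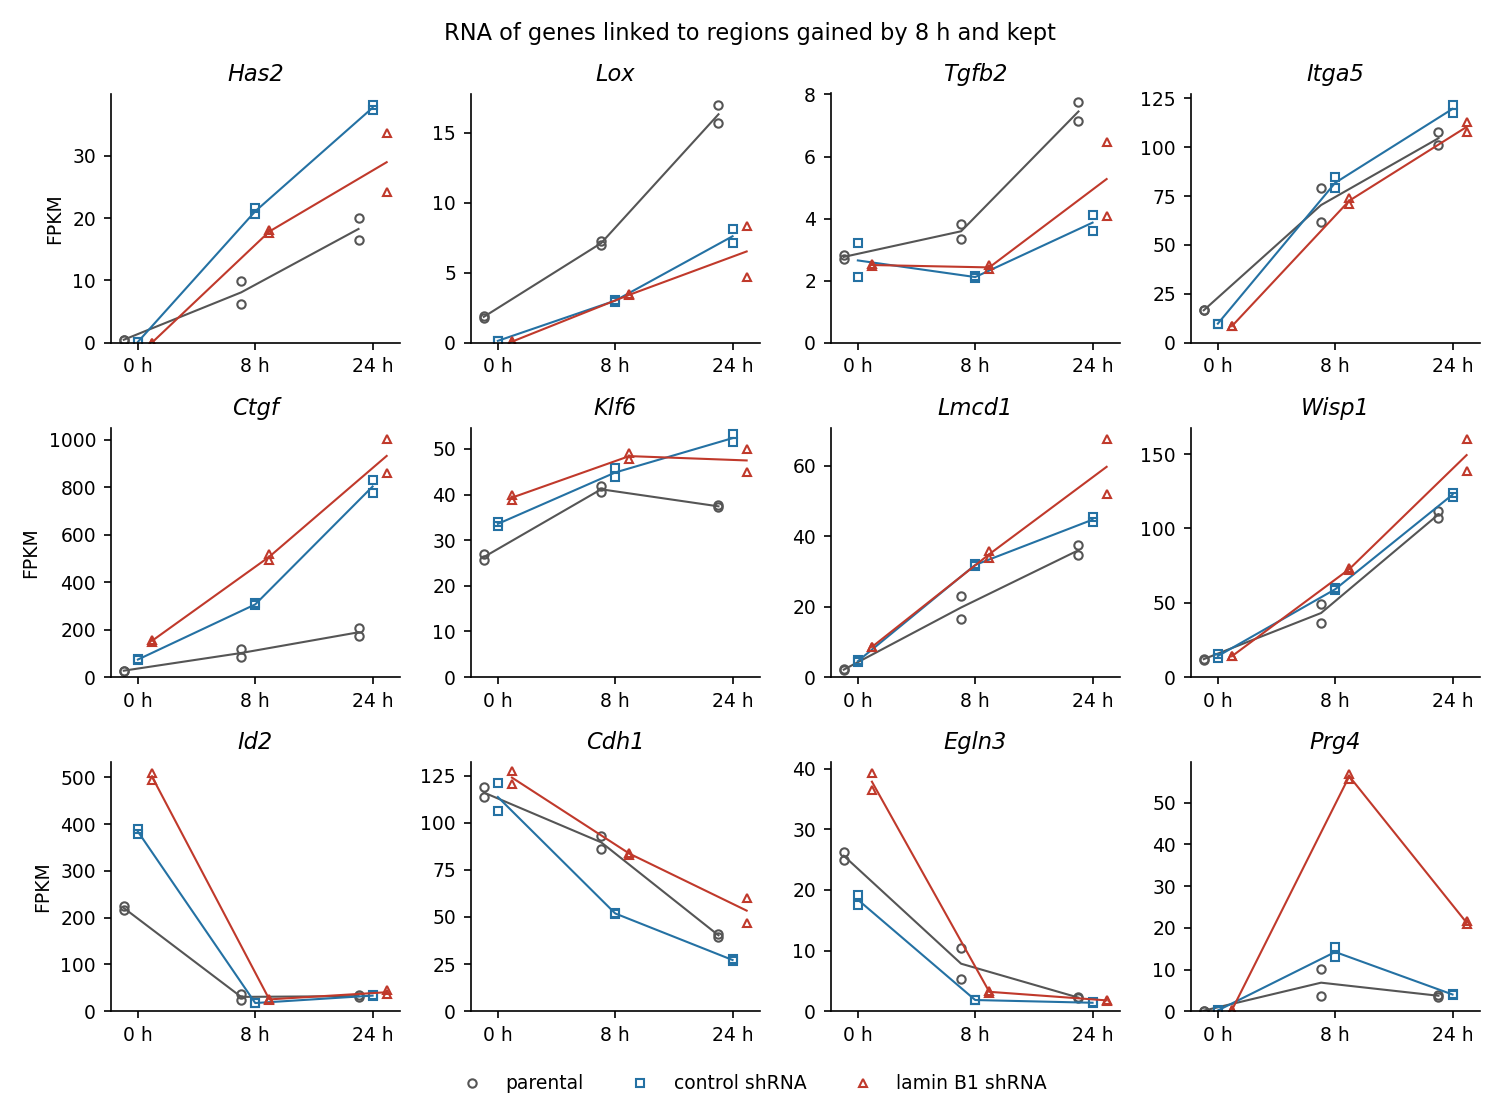
FPKM (vertical axes, from 0) of 12 linked genes in untreated cells and after 8 and 24 h of TGF-β (horizontal axes), 1 point a library, for parental, control shRNA and lamin B1 shRNA cells, with lines through the means of 2 libraries. Has2, Lox and Itga5 lie near the bottom in untreated cells and high in treated cells of all 3 kinds, Id2 falls, and Prg4 is higher in lamin B1 shRNA cells than in control cells after TGF-β.

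The last comparison asked whether the linked genes responded differently when lamin B1 was reduced. Lmnb1 itself was at 29.2 and 36.5 FPKM in untreated control shRNA cells and at 9.01 and 9.27 in untreated KD cells, and every KD library was below every control library. In KD cells 563 linked genes rose (34.5%, against 23% of all genes) and 668 fell (40.9%, against 44.8%) at 8 h, and 598 rose (36.6%, against 28.6%) and 646 fell (39.5%, against 43.3%) at 24 h, which is 75.3% called in either direction at 8 h (67.8% of all genes) and 76.1% at 24 h (71.9%). Without TGF-β, 222 were higher in KD cells (13.6%, against 10.6%) and 150 lower (9.18%, against 9.09%), 22.8% in all against 19.7%. Under TGF-β, 396 of 1634 linked genes were higher in KD than in control cells at 8 h (24.2%, against 19.3% of all genes) and 220 lower (13.5%, against 16.5%). At 24 h 345 were higher (21.1%, against 16.8%) and 157 lower (9.61%, against 11.5%). The 616 calls at 8 h (37.7%, against 35.8% of all genes) came to between 354 and 369 with any 1 of the libraries left out, and the 502 calls at 24 h (30.7%, against 28.3%) to 206 and 249 without either 24 h control library and to 697 without the first 24 h KD library. A difference in the response from untreated to 8 h was called for 83 linked genes (5.08%, against 4.06%), 55 more positive in KD cells (3.37%, against 2.45%) and 28 more negative (1.71%, against 1.61%). At 24 h there were 112 (6.85%, against 4.72%), with 67 more positive (4.10%, against 2.73%) and 45 more negative (2.75%, against 1.98%).

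These counts moved strongly with single libraries. The count of differing responses at 8 h was 227 without the second untreated control library, 62 without the first, and between 6 and 12 without any of the 8 h libraries or the untreated KD libraries in turn. At 24 h it was 426 without the first 24 h KD library, 239 and 88 without the second or first untreated control library, 166 without the second 24 h KD library, and between 23 and 27 without a 24 h control or an untreated KD library. Leaving out a library leaves a group with 1 sample, which is then assumed to vary like the others. Under each omission the share called over all genes moved in the same direction, here and for KD against control. These moves are therefore not a result about the linked genes. The 24 h KD libraries agreed least with each other (Pearson r of 0.960 over genes).

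Prg4 kept its difference at both times under each such omission. It was at 0.175 and 0.206 FPKM in untreated control cells, 15.3 and 13.1 at 8 h and 3.97 and 4.06 at 24 h, and in KD cells at 0.245 and 0.339, 56.9 and 55.7, and 21.6 and 20.8. The KD response was larger by 1.80 ± 0.10 at 8 h and 2.03 ± 0.10 at 24 h, with adjusted p of 0.00012 and 5.7e-05 in limma. Wnt9a also kept a larger 8 h response in KD cells (0.76 ± 0.09), with 4.76 and 5.08 FPKM in control and 11.8 and 11.1 in KD cells at 8 h. At 24 h Anks4b, a scaffold protein of the brush border, was at 0.662 and 0.554 FPKM in control and 4.79 and 5.31 in KD cells, after starting at 30.0 and 28.4 against 35.2 and 35.7. Cdh1 fell less in KD cells at 24 h (0.81 ± 0.15), with 26.8 and 27.6 FPKM in control and 46.6 and 60.1 in KD cells, a call that was lost under some omissions.

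For Has2, Itga5 and Jun, no difference in response between KD and control cells was called at either time. For Has2 the difference in response was -0.07 ± 0.17 at 8 h and -0.23 ± 0.17 at 24 h, for Itga5 0.01 ± 0.07 and 0.07 ± 0.07, and for Jun -0.10 ± 0.11 and 0.06 ± 0.11. Ctgf, in contrast, rose less in KD cells by 24 h (-0.83 ± 0.10, adjusted p of 0.0053 in limma), from a higher start of 148 and 157 FPKM against 75.5 and 72.0. Of the 10 gene lists, the TGF-β, AP-1, actin, mesenchymal and cell cycle lists had no linked gene with a called difference in response at either time. Few linked genes were tested there, with 6 of the TGF-β, 2 of the AP-1 and 4 of the mesenchymal list. Of all genes 4.06% were called at 8 h and 4.72% at 24 h, so these lists do not stand apart. In the whole mesenchymal list 1 of 13 tested genes was called at each time. A p that misses the threshold does not show that the responses were alike.

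The labelled cell type was checked against marker genes of 6 cell types. Luminal epithelial keratins were high in untreated parental cells, with Krt8, Krt18 and Krt19 at means of 2027, 1748 and 993 FPKM. Krt19 was down to 62.3 FPKM at 24 h, and went from 1000 to 18.8 in control shRNA cells. Of the other luminal markers in untreated parental cells, Cdh1 was at 116 FPKM and the surface marker Epcam at 0.351. Cldn4 was at 0.120 FPKM there and at 8.44 at 24 h. Basal markers summed to between 3.24 and 3.58 FPKM in untreated parental cells. Fibroblast markers summed to between 8.68 and 9.58 FPKM there, 12.5 in both 8 h libraries and between 16.3 and 17.0 at 24 h, with 4 of 6 genes above 1 FPKM, and to at most 0.444 FPKM in untreated shRNA cells. Basal markers reached between 7.55 and 8.87 FPKM at 8 h in parental cells and between 24.9 and 30.6 at 8 h in shRNA cells. Krt14 held most of these sums, with 8 h means of 5.26 FPKM in parental, 27.3 in control shRNA and 26.7 in KD cells. Krt5 had means of at most 0.243 FPKM. At 24 h the basal sums were between 4.58 and 4.95 FPKM in parental cells and between 3.25 and 5.47 in shRNA cells. Immune, endothelial and adipocyte lists summed to at most 2.81, 2.01 and 5.87 FPKM in any library. Adipocyte sums were at least 4.605 FPKM in each parental library and at most 0.203 in each shRNA library. Endothelial sums were at least 1.25 FPKM in parental and at most 0.608 in shRNA libraries. Col1a1 is on both the fibroblast and the mesenchymal list, and the part of other cells in the parental values was not tested.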

How the data were processed

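Peak lists, lamin B1 ChIP-seq lists and expression tables were taken as deposited. The authors' processing notes name mm9, Bowtie, TopHat and Cufflinks without versions, and the peak caller's version and control are not given in the sources used here. The deposited peak lists hold a position and a score, with no counts, so depth is unknown and the number of peaks limits the precision. The deposited expression tables hold FPKM per gene symbol, without a header, and their columns were assigned to groups from the names of the tables. Hi-C data were not used here.

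Places and TSSs came from GENCODE M1 on NCBIM37. Of 24892 gene symbols, 22214 matched (21400 by name, 814 by an older symbol). Shares have 95% Wilson intervals and differences 95% Newcombe intervals, which cover counting error only. Each of 14 motifs was searched on both strands in 300 bp at the region centre. Expression was tested with limma 3.58.1 in R 4.3.3 (trended variance) on log2(FPKM + 1), with all 6 parental or all 12 shRNA libraries in one fit, over genes that reached 1 FPKM in 2 or more libraries, and Benjamini-Hochberg adjustment over all genes tested. Scripts ran in Python 3.11.15 with numpy 2.4.6, scipy 1.17.1 and matplotlib 3.10.9. Tested on simulated data for the parental 8 h comparison (11309 genes), the fit recovered 91% of 100 genes changed by a log2 of 1 and 99% of 100 changed by 2. It also called 9 unchanged genes. The recovery of smaller changes, and of changes in a large share of genes, was not tested.

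Named genes were the nearest genes of the 10 regions with the highest 8 h score, the 5 largest rises and falls per parental comparison among called linked genes with separate replicates and a mean of at least 5 FPKM, linked genes of 10 lists, genes with 3 or more regions, and the 3 largest differences in response each way with a mean of at least 5 FPKM. The regions, gene lists and tests were chosen with earlier results of these data known. Alternatives were list length, score, promoter, link distance, window, filter, pseudocount, normalization, replicate block and omission of each library. 1 linked gene of the matrix list was counted but is not reported here.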

Additional observations from a re-analysis of the deposited data

Results flagged for a closer look

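Each value here is a difference between the TGF-β responses of lamin B1 KD and control shRNA cells that passed the limma test of the difference itself (Benjamini-Hochberg adjusted p under 0.05), given as log2 and positive where the KD response was the more positive. Such differences were called for 83 linked genes at 8 h (5.08%, against 4.06% of all genes) and 112 at 24 h (6.85%, against 4.72%).

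At 8 h the more positive responses in KD cells were those of Prg4 (1.80), Sepp1 (1.38), Serinc5 (1.03), Sprr2b (0.87), Ass1 (0.85), Wnt9a (0.76), Itgb6 (0.61), Tnfrsf1b (0.42) and Anks4b (0.35). The more negative ones were those of Tmem171 (-1.06), Dnmt1 (-0.76), Lmcd1 (-0.67), Egln3 (-0.44) and Tns3 (-0.26). Snord83b, a small nucleolar RNA, had -9.62, and is listed at 0 in most libraries, so this value rests on whether the gene was listed at all.

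At 24 h the more positive responses were those of Prg4 (2.03), Anks4b (1.64), Hist1h4h (1.34), Lgals2 (0.82), Cdh1 (0.81), Ass1 (0.70), Itgb6 (0.62) and Dagla (0.35). The more negative ones were those of Sprr2b (-2.34), Tmem171 (-1.23), Mmp13 (-0.997), Ctgf (-0.83), Egln3 (-0.79), Sema4f (-0.73), Lmo4 (-0.57), Plaur (-0.45), Klf6 (-0.36) and Frmd4a (-0.32). Sprr2b had opposite signs at 8 and 24 h. Of the named genes, 3 of 15 at 8 h (Prg4, Snord83b and Wnt9a) and 9 of 18 at 24 h (Anks4b, Ctgf, Egln3, Itgb6, Lgals2, Prg4, Sema4f, Sprr2b and Tmem171) were called with each library left out in turn.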

How the results depend on the processing

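With lists of equal length 1613 regions met the rule, with 25.05% at promoters, 6.88, 12.5 and 9.86% with a lamin B1 peak at 0, 8 and 24 h, 51.0% GC and AP-1 in 46.2%. With a score of at least 100 there were 234 regions. A promoter of 2500 bp gave 25.8%, lamin B1 peaks at or above their median score gave 3.23, 6.05 and 4.96%, 500 bp windows gave 49.9% GC and AP-1 in 60.1%, and AP-1 was in 61.1, 58.5 and 17.5% by rising GC class. Against regions seen at 24 h only, the promoter difference turned to -3.617 points (equal length) and -1.86 (like 24 h score), the AP-1 difference to 5.45 and 5.11, and the lamin B1 difference at 24 h to -0.62 (like score). The comparisons at like score or within equal lists were chosen after seeing the data.

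Counts of called linked genes, in the order parental 8 and 24 h, control shRNA 8 and 24 h, were 117, 262, 229 and 318 with at least a 2-fold change, 407, 528, 482 and 505 with a link within 500 bp, 677, 832, 778 and 815 within 10 kb, and 1836, 2359, 2155 and 2305 with any gene within 50 kb. In that order, the 2-fold shares were 7.06, 15.8, 14.0 and 19.5%, beside 4.30, 11.8, 8.58 and 14.6% of all genes. Within 500 bp they were 56.8, 73.7, 68.1 and 71.3%, and within 10 kb 61.3, 75.3, 71.2 and 74.6%. With any gene they were 57.3, 73.6, 68.3 and 73.0%. For these distance settings the shares of all genes were 54.5, 70.5, 64.3 and 70.7%. For KD against control at 8 and 24 h the counts were 12 and 11 (2-fold), 267 and 210 (500 bp) and 1156 and 940 (any gene). With only the groups compared in the fit, the count at 24 h was 120 (7.34%, against 6.20% of all genes). For the difference in response at 8 and 24 h the counts were 47 and 74 (no filter), 6 and 9 (2-fold) and 33 and 35 (500 bp). They were 48 and 68 (10 kb) and 136 and 180 (any gene), and 21 at 24 h with only the groups compared. Without the filter 2.18 and 3.43% of linked genes were called, beside 1.22 and 1.83% of all genes. The 2-fold shares were 0.367 and 0.551%, beside 0.262 and 0.463%. Within 500 bp they were 4.66 and 4.94%, within 10 kb 4.3956 and 6.23%, and with any gene 4.31 and 5.703%. All genes stood at 4.06 and 4.72% there, so the 500 bp and the 8 h shares were near those of all genes. With only the groups compared the 24 h share was 1.29%, beside 0.769%. With at least a 2-fold change, KD against control at 8 h was called for 0.734% of linked genes beside 0.803% of all genes, and at 24 h for 0.673% beside 0.533%. The shares called of linked and of all genes were 37.7 and 35.8% (500 bp) and 36.6 and 35.8% (any gene) at 8 h, and 29.7 and 28.3% and 29.8 and 28.3% at 24 h. Fewer or more genes are linked under the distance settings by construction; otherwise the cause was not tested.

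With 1 library left out at a time the counts ran from 860 to 1023 and 1096 to 1159 (parental), 1014 to 1112 and 1097 to 1181 (control shRNA), 354 to 369 and 206 to 697 (KD against control), and 6 to 227 and 23 to 426 (difference in response). Of the named genes called in parental cells, 77 of 88 at 8 h and 86 of 90 at 24 h were called under each omission. For each comparison the share called over all genes moved under each omission in the same direction as the count of linked genes. Tm4sf4 at 24 h turned to 0.0508 under quantile normalization.

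With the replicate block the counts for the difference in response were 52 and 81, for KD against control 598 and 468, and for control shRNA cells 1170 and 1226. In that order 3.18 and 4.96%, 36.6 and 28.6%, and 71.6 and 75.03% of linked genes were called. Of all genes the shares were 2.48 and 3.29%, 34.96 and 26.7%, and 63.8 and 70.2%. Same-numbered shRNA libraries shared only a number: deviations correlated over 15 pairs of groups from -0.135 to 0.368 (median 0.0202), with 2 over 0.1. At 8 h the KD numbers correlated at -0.113, and the crossed pairing, added after seeing the data, gave 579 calls (35.4%, against 33.6% of all genes). The parental columns carry no replicate numbers, so their libraries could not be paired.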

Other observations

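The gained regions were found on chromosomes 1 to 19 and X, from 0.606 per Mb on chromosome X to 1.81 per Mb on chromosome 15. As a share of the merged regions of a chromosome they ran from 7.38% on chromosome 19 to 12.5% on chromosome 18, beside 10.4% over the genome. Gained regions at or above the median 8 h score held the FOX motif TGTTTAC in 7.14% (6.04 to 8.42) and the SMAD motif CAGACA in 33.9% (31.8 to 36.1), and were at promoters in 21.0% (19.2 to 23.0). Below that median the shares were 5.19% (4.25 to 6.31) for FOX, 31.0% (28.9 to 33.2) for SMAD and 23.1% (21.3 to 25.2) for promoters, and the intervals of the upper and lower regions overlapped for all 3. These intervals cover counting error only.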
